A study of Homo sapiens with 4 samples.

Results

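The 45 genes described here encode proteins of homologous recombination, the Fanconi anaemia pathway and the ATM and ATR checkpoints. They were listed by name for their known roles, with earlier results of these data known, and all 45 were found among the 20263 human gene rows of the count table. The cells were HCT116, a human colorectal carcinoma line, cultured for 24 h with HJJ_3_5, called a piperine derivative in the series title, or with DMSO, the solvent control. Each group held 2 libraries of messenger RNA, HJJ_3_5 1 and 2 and DMSO 1 and 2. No dose of the compound is stated in the labels. They do not say either that libraries 1 and 2 of a group were separate cultures, and the p-values then cover only the spread between these libraries, which may be technical. HCT116 is a single cell line that carries a shortened intronic repeat that disturbs MRE11 splicing, as background that both groups share.

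Homologous recombination copies the sequence of a broken DNA end from the sister chromatid. The MRN complex (MRE11, RAD50 and NBN) and RBBP8 trim the end, BRCA1, PALB2 and BRCA2 prepare it for strand exchange, and BLM with its partners takes the joint molecules apart. The Fanconi core complex attaches ubiquitin to FANCD2 and FANCI where strands are crosslinked, and the kinases ATM and ATR signal broken ends and stalled forks to CHEK2 and CHEK1. Cells use these pathways mostly in S and G2 phase, when a sister chromatid exists, and tumours that lack them are sensitive to inhibitors of PARP1.

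The libraries held 29211120 and 36455176 counts with HJJ_3_5, and 31120459 and 29769568 with DMSO. All 45 genes passed the filter on low counts, and the lowest count of any of them in a library was 97. Libraries of a group differed by more than sampling noise, with a chi-square of 49.9 per degree of freedom for HJJ_3_5 and 37.9 for DMSO. The epithelial markers EPCAM and KRT8 lay at 221 CPM or more in all 4 libraries, while VIL1 was at 0.136 CPM or less. CPM is the read count scaled to a common library size after TMM (trimmed mean of M-values) normalization. Among markers of other cell types, PTPRC of leukocytes had 0 counts in all 4 libraries, the 3 leukocyte genes summed to at most 0.388 CPM, and the 3 endothelial genes to between 0.797 and 1.92 CPM. The 3 fibroblast genes summed to 35.3 and 40.7 CPM with HJJ_3_5 and to 67.2 and 65.2 CPM with DMSO. Nearly all of that was COL1A1, since COL3A1 was at 0.145 CPM or less. The part of these markers in the values of the repair genes was not tested.

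Most of the repair and checkpoint genes did not pass the test with HJJ_3_5. The strand exchange gene XRCC2 and the Fanconi core genes FANCA and FANCF rose, and RNF168, a ubiquitin ligase that marks chromatin around breaks, fell. These 4 were 8.89% of the 45, against 17.4% of all 14180 genes tested (edgeR's quasi-likelihood test, with a threshold of 0.05 on the Benjamini-Hochberg adjusted p). The 3 higher genes stand beside 9.17% of all genes called higher, and the 1 lower gene beside 8.27% called lower, and in this fit the share called among the 45 lay below that of the whole table. The median log2 fold change of the 45 was -0.12, against 0.00 for all tested genes (0.00129 before rounding), and 28 of the 45 fold changes were negative. In bulk RNA, fewer cells that express a gene and less RNA per cell cannot be told apart.

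XRCC2 is a subunit of the BCDX2 complex, which acts in strand exchange. It had 13.44 and 15.02 CPM with HJJ_3_5, against 6.41 and 6.41 CPM with DMSO. The groups lay far apart and the DMSO libraries were alike. Its log2 fold change was 1.15 ± 0.15 (standard error, edgeR adjusted p = 0.0279). FANCF, the adaptor that joins parts of the core complex, had 9.95 and 10.2 CPM with HJJ_3_5, against 5.74 and 5.58 CPM with DMSO, a log2 fold change of 0.83 ± 0.16 (edgeR adjusted p = 0.0373). FANCA, which binds FANCG and brings the core complex to the nucleus, had 72.1 and 72.2 CPM with HJJ_3_5, against 47.4 and 50.8 CPM with DMSO. Its groups did not overlap either, with a log2 fold change of 0.56 ± 0.11 (edgeR adjusted p = 0.0381).

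RNF168 acts after RNF8, attaches ubiquitin to histone H2A and so allows TP53BP1 to bind near breaks. It had 28.02 and 35.89 CPM with HJJ_3_5, against 67.4 and 69.0 CPM with DMSO. Both HJJ_3_5 libraries lay well below both DMSO libraries, and the log2 fold change was -1.09 ± 0.16 (edgeR adjusted p = 0.0293). All 4 calls were lost when HJJ_3_5 1, DMSO 1 or DMSO 2 was left out, where the lowest adjusted p of any of the 45 genes was 0.076, 0.0847 and 0.0825 in that order and 0, 52 and 4 of all genes were called. The log2 fold changes without 1 library ranged from 1.06 to 1.23 for XRCC2, 0.81 to 0.85 for FANCF, 0.50 to 0.60 for FANCA and -1.29 to -0.93 for RNF168. Without HJJ_3_5 2, XRCC2 and RNF168 were still called, and of the 45 genes 1 was higher and 7 lower, beside 6.78% and 11.9% of all genes. FANCA shares exon bases with ZNF276 and FANCF with GAS2 on the opposite strand, and no source used here states whether counting used strand, so reads of these pairs could be mixed. XRCC2 and RNF168 are among the 28 of the 45 genes that share no exon bases with another coding gene. Among the others are ATM, TP53BP1, XRCC3, FANCL, MRE11 and CHEK2 with partners on the opposite strand, and RAD50, ATRIP, CHEK1 and RAD54B with partners on their own strand.

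**Figure D1:**
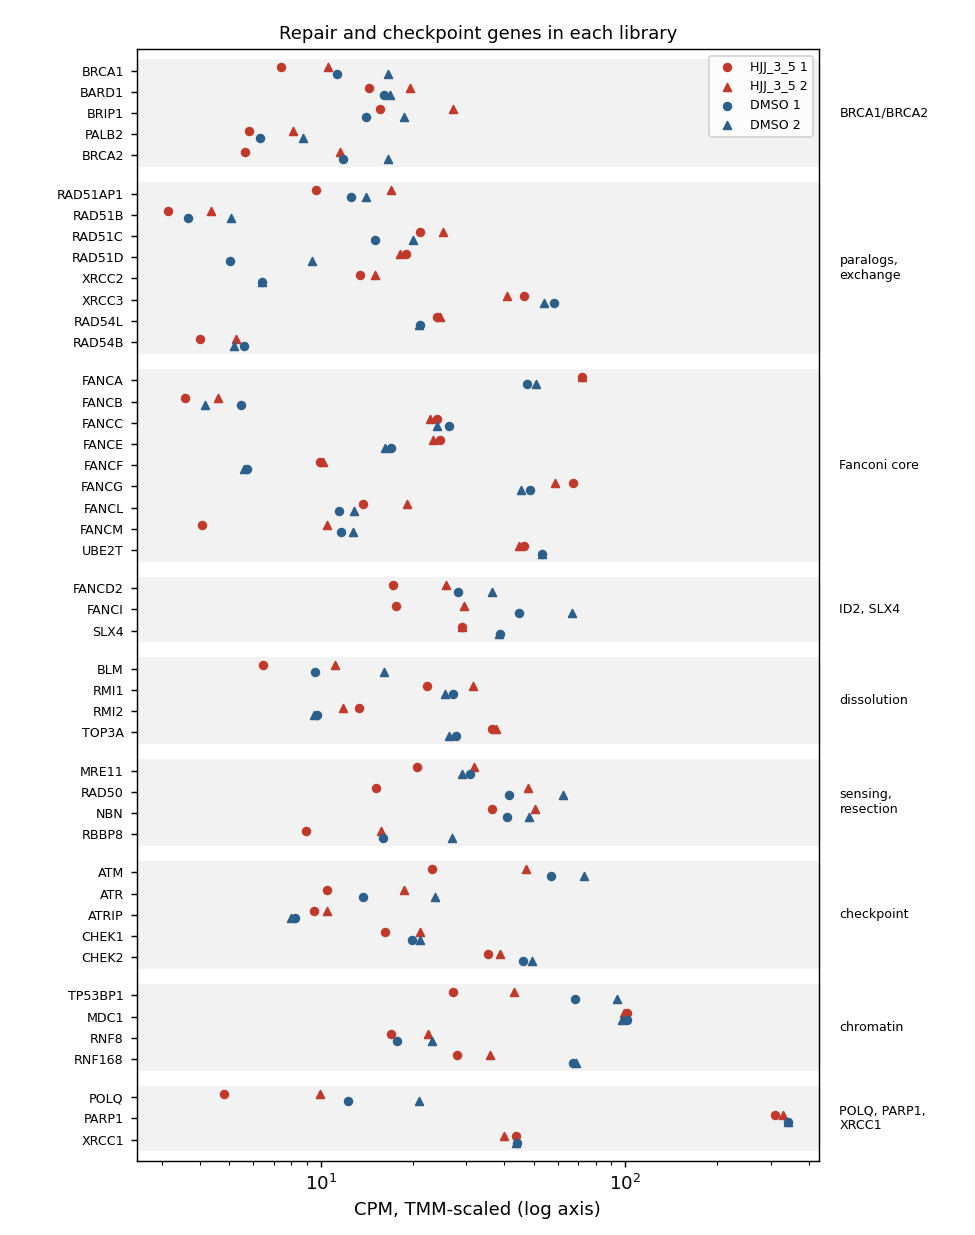
TMM-scaled CPM (log axis) of the 45 genes in each library, grouped by role, with HJJ_3_5 in red above DMSO in blue, circles for library 1 and triangles for library 2. XRCC2, FANCF and FANCA lie to the right of DMSO in both HJJ_3_5 libraries and RNF168 to the left, while for ATM, RAD50 and BRCA2 circles and triangles of the same group lie far apart.

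The windows at the starts of the 4 called genes are shown because these are the genes whose RNA level passed the test. Each runs from 250 bases before to 50 bases after the gene start, 5′ to 3′ along the gene's strand (RefSeq, GRCh38.p14, all 4 on the minus strand), with motif matches in capitals. The motifs searched on both strands were the E2F octamers TTTCCCGC, TTTCGCGC, TTTGCCGC and TTTGGCGC, the cell cycle homology region TTTGAA, and CCAAT, the box bound by NF-Y. XRCC2 lies on chromosome 7 (ENSG00000196584, 152644779 to 152676165 in GENCODE 29 on GRCh38), FANCA on chromosome 16 (ENSG00000187741, 89737549 to 89816657), FANCF on chromosome 11 (ENSG00000183161, 22622890 to 22625841) and RNF168 on chromosome 3 (ENSG00000163961, 196468783 to 196503768).
XRCC2, chr7:152676092-152676391: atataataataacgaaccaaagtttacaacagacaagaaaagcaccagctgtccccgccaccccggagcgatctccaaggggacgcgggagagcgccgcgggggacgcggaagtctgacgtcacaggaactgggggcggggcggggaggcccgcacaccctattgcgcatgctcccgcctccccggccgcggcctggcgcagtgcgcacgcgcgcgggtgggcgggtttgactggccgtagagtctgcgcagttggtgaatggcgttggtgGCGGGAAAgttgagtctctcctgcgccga
FANCA, chr16:89816598-89816897: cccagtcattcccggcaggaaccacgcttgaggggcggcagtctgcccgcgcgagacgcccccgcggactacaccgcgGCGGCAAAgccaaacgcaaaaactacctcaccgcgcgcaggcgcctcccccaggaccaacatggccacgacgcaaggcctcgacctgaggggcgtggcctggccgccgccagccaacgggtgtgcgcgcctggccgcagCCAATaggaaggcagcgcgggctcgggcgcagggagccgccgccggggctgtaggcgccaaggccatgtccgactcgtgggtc
FANCF, chr11:22625774-22626073: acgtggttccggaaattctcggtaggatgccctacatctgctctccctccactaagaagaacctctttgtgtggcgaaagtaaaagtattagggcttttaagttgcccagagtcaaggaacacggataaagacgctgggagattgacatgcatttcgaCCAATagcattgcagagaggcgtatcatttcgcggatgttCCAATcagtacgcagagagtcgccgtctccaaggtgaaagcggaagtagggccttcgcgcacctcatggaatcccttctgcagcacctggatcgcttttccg
RNF168, chr3:196503719-196504018: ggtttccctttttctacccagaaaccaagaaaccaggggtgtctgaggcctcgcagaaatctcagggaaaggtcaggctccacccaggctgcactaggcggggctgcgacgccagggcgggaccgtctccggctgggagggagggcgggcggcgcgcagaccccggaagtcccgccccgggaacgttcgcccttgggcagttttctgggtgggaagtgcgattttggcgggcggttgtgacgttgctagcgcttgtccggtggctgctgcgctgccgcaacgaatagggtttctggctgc

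XRCC2 held 1 E2F octamer and FANCA held 1, FANCA held 1 CCAAT box and FANCF held 2, and RNF168 held none of the motifs. None of the printed matches overlapped another. Of the 45 genes, 41 had a window in the table. An E2F octamer was found in 5 of the 41 (12.2%), against 3.99% of 27305 genes, and these were XRCC2, FANCA, FANCC, FANCD2 and RMI1. The CHR letters were found in 7 (17.1%, against 18.2% of all genes) and CCAAT in 21 (51.2%, against 39.7%). A gene counted if any of its windows matched. The 27305 genes are all those with a window, more than the 20263 rows of the count table, and were not limited to genes expressed here. The genes with an octamer did not share a direction: besides XRCC2 and FANCA, FANCC, FANCD2 and RMI1 had log2 fold changes of -0.10, -0.59 and 0.03, none of them called.

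Counting only whether the groups overlapped, both HJJ_3_5 libraries lay above both DMSO libraries for 12 of the 45 genes (26.7%, against 35.1% of all genes tested) and below both for 15 (33.3%, against 33.9%). For the other 18 the groups overlapped. The 15 were spread over most of the roles, and the 12 were mainly in the Fanconi core complex, the strand exchange genes and the dissolution complex. The values of the genes by role follow.

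BRCA1 and its partners were not called in fits of all 4 libraries with the group as the only term. BRCA1 had 7.40 and 10.5 CPM with HJJ_3_5, against 11.3 and 16.5 CPM with DMSO, a log2 fold change of -0.63 ± 0.28 (edgeR adjusted p = 0.171). BRCA2, a mediator of strand exchange, had 5.62 and 11.6 CPM with HJJ_3_5, against 11.8 and 16.6 CPM with DMSO (-0.72 ± 0.40, edgeR adjusted p = 0.245). For both genes the groups just failed to touch, and the libraries of a group differed about as much as the groups did. PALB2, the bridge between BRCA1 and BRCA2, had 5.82 and 8.07 CPM with HJJ_3_5, against 6.31 and 8.76 CPM with DMSO, so its groups overlapped (-0.12 ± 0.27). BARD1, the obligate partner of BRCA1, and the helicase BRIP1 had log2 fold changes of 0.05 ± 0.19 and 0.39 ± 0.32 with overlapping groups.

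Among the genes of the BCDX2 complex, XRCC3 and the strand exchange partners, 1 of 8 was called, XRCC2, beside 17.4% of all genes tested. RAD51D, which pairs with XRCC2 in the BCDX2 complex, had 19.0 and 18.1 CPM with HJJ_3_5, against 5.02 and 9.34 CPM with DMSO. Its log2 fold change of 1.37 ± 0.32 was the highest of the 45, and its adjusted p of 0.0514 by edgeR lay just outside the threshold. It passed with DESeq2 (adjusted p = 0.0016) and with limma-voom (adjusted p = 0.0418), and RAD51D shares exon bases with another annotated gene on its strand. DESeq2, here and below, called 28.1% of all genes and 24.4% of the 45, against 17.4% and 8.89% with edgeR. The other subunits of that complex, RAD51C and RAD51B, had log2 fold changes of 0.40 ± 0.20 and -0.22 ± 0.29. XRCC3, which pairs with RAD51C in a separate complex, had 46.6 and 40.8 CPM with HJJ_3_5, against 58.2 and 53.9 CPM with DMSO (-0.36 ± 0.13, edgeR adjusted p = 0.111). The translocases RAD54L and RAD54B (0.21 and -0.22) and RAD51AP1, which aids strand invasion (0.00 ± 0.30), were not called.

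Of the 9 genes of the Fanconi core complex and its ubiquitin-conjugating enzyme, 2 rose and 0 fell, beside 9.17% and 8.27% of all genes. Both HJJ_3_5 libraries lay above both DMSO libraries for 5 of them and below both for 2, FANCM and UBE2T, beside 35.1% and 33.9% of all genes. Besides FANCA and FANCF the 5 were FANCE (0.52 ± 0.12, edgeR adjusted p = 0.0514), FANCG (0.43 ± 0.13, edgeR adjusted p = 0.0779) and FANCL (0.43 ± 0.21, edgeR adjusted p = 0.198). FANCE had 24.53 and 23.30 CPM with HJJ_3_5, against 17 and 16.26 CPM with DMSO. FANCE passed with DESeq2 (adjusted p = 0.0216). FANCE links the core complex to FANCD2, and FANCL is the ubiquitin ligase itself. FANCL had 13.7 and 19.2 CPM with HJJ_3_5, against 11.5 and 12.9 CPM with DMSO. Per kilobase of the longest coding transcript the core genes differed widely in level, from 1.02 CPM per kilobase for FANCM to 24.0 for FANCG with HJJ_3_5, and from 1.60 for FANCB to 17.8 for FANCG with DMSO. UBE2T, the conjugating enzyme that works with FANCL, was higher still, at 50.3 CPM per kilobase with HJJ_3_5 and 58.5 with DMSO. FANCM, the DNA translocase that anchors the complex, had 4.07 and 10.5 CPM with HJJ_3_5, against 11.6 and 12.7 CPM with DMSO (-0.74 ± 0.46, edgeR adjusted p = 0.295). Its low value was that of HJJ_3_5 1.

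The substrates of the core complex and SLX4 had negative fold changes, none of which passed the edgeR test. FANCI had 17.7 and 29.5 CPM with HJJ_3_5, against 44.6 and 66.7 CPM with DMSO, the most negative fold change of the 45 (-1.24 ± 0.33, edgeR adjusted p = 0.0639). FANCD2 had 17.2 and 25.8 CPM with HJJ_3_5, against 28.3 and 36.4 CPM with DMSO (-0.59 ± 0.25, edgeR adjusted p = 0.158). SLX4, the scaffold for nucleases that cut at the crosslink, had 29.1 and 29.2 CPM with HJJ_3_5, against 38.8 and 38.5 CPM with DMSO (-0.41 ± 0.11, edgeR adjusted p = 0.067). For all 3 both HJJ_3_5 libraries lay below both DMSO libraries, as they did for 33.9% of all genes tested. With DESeq2, FANCI (adjusted p = 0.00244) and SLX4 (adjusted p = 0.0327) passed, and FANCI also passed with edgeR without HJJ_3_5 2 (adjusted p = 0.0385). FANCI shares exon bases with POLG and FANCD2 with FANCD2OS on the opposite strand.

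In the complex that dissolves joint molecules, 0 of 4 genes were called, beside 17.4% of all genes tested. TOP3A, the topoisomerase, had 36.5 and 37.6 CPM with HJJ_3_5, against 27.8 and 26.3 CPM with DMSO (0.45 ± 0.11, edgeR adjusted p = 0.0589), and passed with DESeq2 (adjusted p = 0.0264). The scaffold RMI2 (0.39 ± 0.15) lay higher in both HJJ_3_5 libraries too, while RMI1 (0.03 ± 0.20) and the helicase BLM (-0.54 ± 0.38) had overlapping groups.

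The genes of break sensing and resection were not called. MRE11, the nuclease of the MRN complex, had 20.7 and 31.9 CPM with HJJ_3_5, against 30.92 and 29.01 CPM with DMSO (-0.19 ± 0.23, edgeR adjusted p = 0.591). RAD50, its coiled-coil partner, had 15.1 and 47.8 CPM with HJJ_3_5, against 41.4 and 62.5 CPM with DMSO (-0.72 ± 0.58, edgeR adjusted p = 0.399). Its libraries differed widely within the HJJ_3_5 group, and the groups overlapped. NBN had a log2 fold change of -0.03 ± 0.20, and RBBP8, which encodes CtIP, one of -0.80 ± 0.38.

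The checkpoint kinases and ATRIP gave 0 calls among 5 genes, beside 17.4% of all genes tested. ATM had 23.2 and 47.0 CPM with HJJ_3_5, against 57.1 and 72.9 CPM with DMSO (-0.89 ± 0.37, edgeR adjusted p = 0.149). The groups did not overlap, but the HJJ_3_5 libraries differed from each other more than HJJ_3_5 2 differed from DMSO 1. ATR had 10.5 and 18.7 CPM with HJJ_3_5, against 13.7 and 23.7 CPM with DMSO (-0.36 ± 0.39, edgeR adjusted p = 0.539), and its groups overlapped. Its partner ATRIP, which recruits ATR to single-stranded DNA, had a log2 fold change of 0.30 ± 0.16. CHEK1, the kinase that ATR activates, had 16.2 and 21.2 CPM with HJJ_3_5, against 19.96 and 21.11 CPM with DMSO (-0.14 ± 0.18, edgeR adjusted p = 0.6). CHEK2, the kinase that ATM activates, had 35.5 and 38.8 CPM with HJJ_3_5, against 46.0 and 49.2 CPM with DMSO (-0.36 ± 0.12, edgeR adjusted p = 0.0989).

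Of the 4 genes of the chromatin response, RNF168 was the 1 call, beside 17.4% of all genes tested. TP53BP1, which protects ends from resection, had 27.1 and 43.0 CPM with HJJ_3_5, against 68.4 and 93.8 CPM with DMSO. Its log2 fold change of -1.21 ± 0.29 was further from 0 than that of RNF168 but had a larger standard error, and lay just outside the threshold (edgeR adjusted p = 0.0532). It passed with DESeq2 (adjusted p = 0.000833), with limma-voom (adjusted p = 0.0497) and with no filter in edgeR (adjusted p = 0.0447). Of all genes, DESeq2 called 28.1%. The scaffold MDC1 had 102 and 99.0 CPM with HJJ_3_5, against 101 and 97.1 CPM with DMSO (0.02 ± 0.09), and RNF8 had a log2 fold change of -0.05 ± 0.22. The difference between the ligases RNF168 and RNF8 was not tested.

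Outside homologous recombination, POLQ, the polymerase of microhomology-mediated end joining, had 4.82 and 9.91 CPM with HJJ_3_5, against 12.3 and 21.1 CPM with DMSO (-1.18 ± 0.45, edgeR adjusted p = 0.127). PARP1, the sensor of nicks and breaks and the target of PARP inhibitors, had 311 and 328 CPM with HJJ_3_5, against 342 and 341 CPM with DMSO (-0.10 ± 0.09, edgeR adjusted p = 0.447). It had the highest level of the 45 per kilobase, at 80.7 CPM per kilobase with HJJ_3_5 and 86.3 with DMSO. XRCC1, its scaffold in single-strand break repair, had a log2 fold change of -0.07 ± 0.12.

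**Figure D2:**
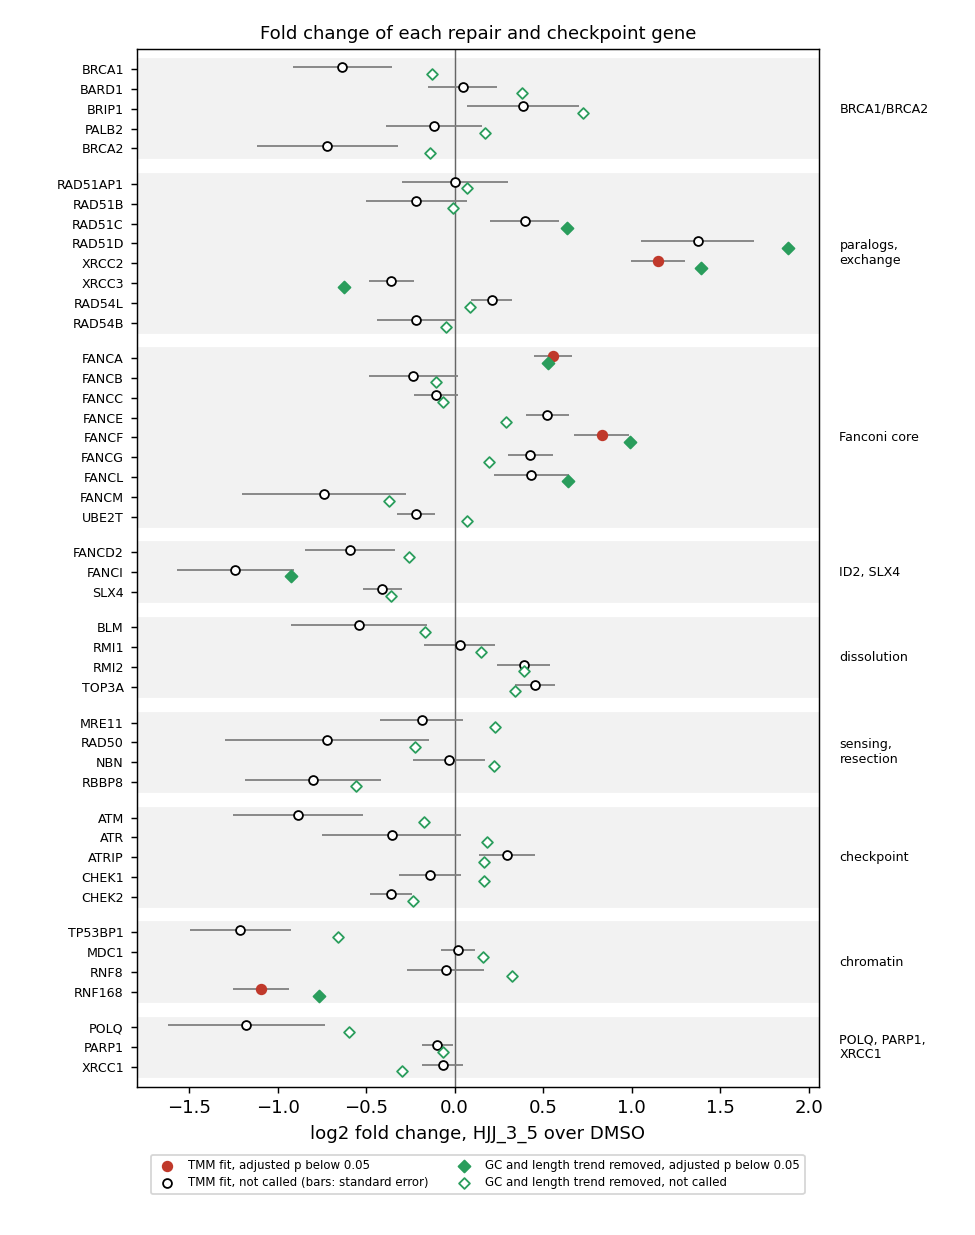
Log2 fold change of HJJ_3_5 over DMSO for the 45 genes, grouped by role. Circles show the TMM fit with standard errors (filled red where adjusted p was below 0.05) and green diamonds the fit with the GC and length trend removed (filled where called). The 4 filled circles are XRCC2, FANCA, FANCF and RNF168, and the filled diamonds add RAD51C, RAD51D and FANCL on the higher side and FANCI and XRCC3 on the lower side.

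Both the fold changes and the differences between libraries of a group were more negative for longer transcripts and for those of lower GC content. These genes have long transcripts of low GC content, with medians of 4580 bases and 43.4%. For all tested genes with an annotation the medians were 3323 bases and 50%. Among the 22 genes with transcripts longer than 4580 bases, the median log2 fold change was -0.47 and 17 were negative. Among the other 23 it was 0.00 (0.000173 before rounding) and 11 were negative. At the same split, the medians over all tested genes were -0.19 for the 4287 longer and 0.07 for the 9731 shorter. Both HJJ_3_5 libraries lay below both DMSO libraries for 10 of the 22 and for 5 of the 23, beside 33.9% of all genes of any length. They lay above both for 2 of the 22 and 10 of the 23, beside 35.1% of all genes of any length. Library 1 minus library 2 on the log2(CPM + 0.5) scale had medians of -0.59 in the longer and -0.14 in the shorter genes with HJJ_3_5. With DMSO these were -0.37 and 0.00 (0.00468 before rounding in the shorter genes). Over all tested genes they were -0.13 and 0.04 with HJJ_3_5, and -0.05 and 0.01 with DMSO. The longest, ATM, BRCA2 and TP53BP1, were lower in library 1 of each group than in library 2. Across the 45 genes, which share the same 4 libraries, Spearman's rho with transcript length was -0.42 for HJJ_3_5 over DMSO, -0.50 for HJJ_3_5 1 over 2 and -0.45 for DMSO 1 over 2. Over 14018 tested genes the same values were -0.22, -0.30 and -0.18. With GC content, rho across the 45 genes was 0.26, 0.78 and 0.33, and over the 14018 genes 0.35, 0.55 and 0.36. Over the 14018 genes rho was larger in size with GC content than with length in each comparison. Across the 45 genes this held only for HJJ_3_5 1 over 2. The parts of length and GC content were not tested separately.

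**Figure D3:**
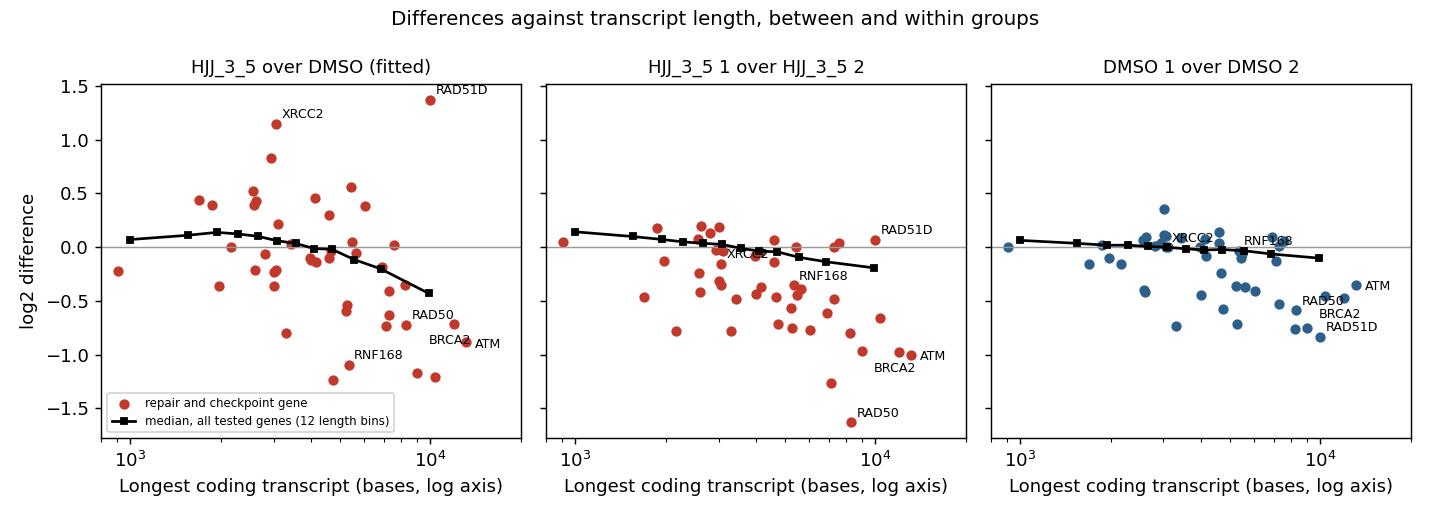
Log2 differences of the 45 genes (points) against the length of the longest coding transcript (log axis), for HJJ_3_5 over DMSO, HJJ_3_5 1 over 2 and DMSO 1 over 2, with the median of all tested genes in 12 length bins as a black line. Long genes such as ATM, BRCA2 and RAD50 lie below 0 in all 3 panels, and XRCC2 and RAD51D lie above 0 in the comparison between groups.

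With a GC and length trend removed in each library, 6 of the 45 genes were higher and 3 lower, beside 13.6% and 11.6% of all genes in that fit. The 4 calls were kept, and the median of the 45 was 0.07, against 0.03 for all genes. XRCC2 (1.39), FANCF (0.99) and FANCA (0.53) were joined by RAD51D (1.88), RAD51C (0.63) and FANCL (0.64), while RNF168 (-0.77) was joined by FANCI (-0.92) and XRCC3 (-0.63), all with an edgeR adjusted p from 0.0159 to 0.0458. Several long genes lay nearer 0: ATM had a log2 fold change of -0.17, BRCA2 of -0.14, BRCA1 of -0.13 and RAD50 of -0.23 in this fit, none of them called. ATR, CHEK1, MRE11 and PALB2 turned from negative to positive values (0.18, 0.17, 0.23 and 0.17) and were not called either. TP53BP1 had -0.66 (edgeR adjusted p = 0.0604) and POLQ -0.60 (edgeR adjusted p = 0.2). Nearer 0 as well were FANCE (0.29, edgeR adjusted p = 0.097), FANCG (0.19, edgeR adjusted p = 0.147) and TOP3A (0.34, edgeR adjusted p = 0.0692), none of them called. The median of the 9 Fanconi core genes was 0.19 in this fit, against 0.43 without the trend removed. The fit uses the longest coding transcript of each gene, 9988 bases for RAD51D, and whether HCT116 uses that transcript was not tested. With library totals in place of TMM, which moved all log2 fold changes up by 0.187, 7 of the 45 were higher and 1 lower, beside 18.4% and 5.77% of all genes. The median of the 45 was then 0.07, against 0.19 for all genes, so the 45 lay below the whole table as they did with TMM.

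A list of 75 other genes of the same pathways gave 6 higher and 3 lower (12% called, against 17.4% of all genes), with a median log2 fold change of -0.09. SFR1, which with SWI5 forms a cofactor of strand exchange, had 44.9 and 48.2 CPM with HJJ_3_5, against 22.7 and 23.2 CPM with DMSO (1.02 ± 0.12, edgeR adjusted p = 0.0273). SWI5 itself had a log2 fold change of -0.61 ± 0.14 (edgeR adjusted p = 0.0532), and was chosen after its value was seen. FAAP100, which joins FANCB and FANCL in the catalytic part of the core complex, had 55.7 and 53.1 CPM with HJJ_3_5, against 24.57 and 28.03 CPM with DMSO (1.05 ± 0.13, edgeR adjusted p = 0.0273). CENPS, a histone-fold partner of FANCM, rose by 1.01 ± 0.18 on the log2 scale (edgeR adjusted p = 0.0358), and HROB, which loads the MCM8 and MCM9 helicase, by 0.80 ± 0.17 (edgeR adjusted p = 0.0436). SWSAP1, a subunit of the Shu complex, rose by 1.51 ± 0.28 on that scale at a low level, with 3.91 and 2.81 CPM with HJJ_3_5, against 1.19 and 1.16 CPM with DMSO (edgeR adjusted p = 0.0368). The sixth was XRCC4 of end joining (0.51 ± 0.11, edgeR adjusted p = 0.047), whose call was lost with no filter (adjusted p = 0.0523). CENPS shares exon bases with a readthrough gene on its strand.

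The 3 lower genes were PRKDC, PARP2 and WDR48. PRKDC, the catalytic subunit of the end-joining kinase DNA-PK, had 110 and 139 CPM with HJJ_3_5, against 248 and 340 CPM with DMSO, a log2 fold change of -1.24 ± 0.21 (edgeR adjusted p = 0.0326). Its transcript is 13509 bases long, and with the trend removed its value was -0.52 (edgeR adjusted p = 0.0345). PARP2, the close relative of PARP1, had 38.5 and 44.2 CPM with HJJ_3_5, against 76.5 and 71.2 CPM with DMSO (-0.84 ± 0.13, edgeR adjusted p = 0.0295). WDR48, the cofactor with which USP1 removes ubiquitin from FANCD2 and FANCI, had 13.0 and 23.6 CPM with HJJ_3_5, against 47.5 and 71.8 CPM with DMSO (-1.70 ± 0.37, edgeR adjusted p = 0.0445). WDR48 shares exon bases with GORASP1 on the opposite strand, so reads of this pair could be mixed. USP1 had a log2 fold change of 0.07 ± 0.12. These 75 genes lost all 9 calls without HJJ_3_5 1, DMSO 1 or DMSO 2.

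Markers of cell cycle phase differed between the groups, and many repair genes are transcribed in the same phases. The G1/S list of 10 genes held 4 that were higher and 0 that were lower, and its summed level was 808 and 826 CPM with HJJ_3_5, against 517 and 587 CPM with DMSO. Of 10 G2/M genes 0 were higher and 5 lower, and their summed level was 596 and 647 CPM with HJJ_3_5, against 1017 and 1385 CPM with DMSO. These calls stand beside 9.17% of all genes called higher and 8.27% called lower. In the G2/M list MKI67, TOP2A, BUB1 and CENPF had the largest falls in CPM. The median log2 fold changes were 0.44 for G1/S and -0.64 for G2/M. With the GC and length trend removed they were 0.61 and -0.52. In that fit 5 G1/S genes were higher and 6 G2/M genes lower, beside 13.6% and 11.6% of all genes. The values ran from -0.73 (MCM6) to 1.22 (MCM5) in the G1/S list and from -3.10 (CENPF) to 0.16 (PLK1) in the G2/M list. The part of cell cycle phase in the values of the repair genes was not tested.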

How the data were processed

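The counts that the authors deposited are whole numbers of reads for each gene and library, with no normalization. No source used here names the aligner, counter, annotation or strand setting. GRCm38 and mm10, the builds given by the submitters' processing notes, are of the mouse, but all 20263 rows carry human Ensembl identifiers, and the build used for counting stays unknown. Positions, transcript length and GC content come from GENCODE 29 on GRCh38, matched by identifier.

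From the deposited counts, filterByExpr (minimum count 10, minimum total 15) kept 14180 genes. The test of HJJ_3_5 against DMSO was the two-sided quasi-likelihood test of edgeR 4.0.16 in R 4.3.3, with TMM factors, no term but the group and 2 residual degrees of freedom, with Benjamini-Hochberg adjustment over all genes and a threshold of 0.05. A standard error is the log2 fold change divided by the square root of F. The trend fit used natural splines (4 degrees of freedom each) of GC content and of log length, fitted in each library on genes with a log2 CPM of at least 3. Alternatives are given in the closing section, with DESeq2 1.42.0 and limma 3.58.1 among them. The methods were tested on simulated data with 200 genes changed up or down. The edgeR test recovered 53.1% of the 2-fold and 95.9% of the 4-fold changes, with 6 false calls. With the trend removed, 51% and 95.9% were recovered, with 6 false calls. The simulated libraries held no trend with GC content or length. These rates therefore do not cover libraries that differ by such a trend, as the deposited ones do. A gene that was not called may thus still have changed by 2-fold. The 45 genes, the 75 other genes and the markers were chosen with earlier results of these data known. CPM by library were to be given for called genes and for BRCA1, BRCA2, PALB2, FANCD2, FANCI, ATM, ATR, CHEK1, MRE11 and PARP1, and up to 8 called genes of the list of 75 were to be named; other genes were given values after these were seen.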

Additional observations from a re-analysis of the deposited data

How the results depend on the processing

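The counts of called genes depended on the settings, while XRCC2, FANCA, FANCF and RNF168 kept their calls in all 9 alternatives that used all 4 libraries and all genes at a threshold of 0.05. Of the 45 genes, 3 were higher and 1 lower, of the 75 other genes 6 and 3, and of all genes 1300 and 1173. With library totals, 7 of the 45, 11 of the 75 and 2614 of all genes were higher. With no filter 16862 genes were tested, of which 1264 were higher and 1276 lower (7.5% and 7.57%). In that fit 4 of the 45 were higher and 2 lower, and of the 75, 5 and 5. DESeq2 gave 6 higher and 5 lower of the 45, 7 and 11 of the 75, and 1837 and 2152 of all genes (13% and 15.2%). The limma-voom fit gave 4 higher and 2 lower of the 45, and 1281 and 1212 of all genes (9.03% and 8.55%). Removal of the trend with GC and length gave 6 higher and 3 lower of the 45, 10 and 9 of the 75, and 1924 and 1646 of all genes (13.6% and 11.6%). At an adjusted p below 0.01, edgeR's quasi-likelihood test called 0 genes of either list and 0 of all genes, where the lowest adjusted p was 0.0244, and 5578 of all genes and 14 of the 45 had an unadjusted p below 0.05. Without genes that share exon bases, 28 of the 45 were tested, and 1 was higher and 1 lower, beside 9.09% and 8.87% of all genes left. Leaving out 1 library gave 0 to 1 higher and 0 to 7 lower of the 45, 0 to 4 and 0 to 7 of the 75, and 0 to 976 and 0 to 1716 of all genes, and the 1 library left in a group was then assumed to vary like the other group. The causes of these changes were not tested.

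The replicate numbers come from the titles, which state no pairing. The difference of library 1 from library 2 in HJJ_3_5 correlated with that in DMSO at 0.252 over 14180 genes and 0.585 over the 45 genes, with only 2 pairs. A fit with the replicate number as a block leaves 1 residual degree of freedom. In it 7 of the 45 were higher and 12 lower (15.6% and 26.7%), and of the 75, 9 and 13. Of all genes 2077 were higher and 2540 lower (14.6% and 17.9%). The share called was then 42.2% of the 45, against 32.6% of all genes, while it lay below that of all genes in the other 9 settings with all 4 libraries at 0.05. Among the 12 lower genes in edgeR with the block were TP53BP1 (adjusted p = 0.0151), FANCI (0.0144), FANCD2 (0.0304) and SLX4 (0.0413). BRCA1 (0.0351), BLM (0.047), XRCC3 (0.0483) and CHEK2 (0.0487) were also among them. With the block and the trend removed, the 45 gave 7 and 7, the 75 gave 15 and 14, and all genes 2558 and 2398 (18% and 16.9%). In that fit MCM8 was called at 0.43 (edgeR adjusted p = 0.0425), against -0.09 and not called without the block and trend. The lowest count of the 45 genes in a library was 97, and each group has 2 libraries.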
